A study of Mus musculus with 4 samples.

Results

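The subject is 7 genes of the MHC class II system (H2-Aa, H2-Ab1, H2-Eb1, Cd74, H2-DMa, H2-DMb1 and Ciita) set beside 2 leukocyte markers, Ptprc and Tyrobp, in RNA of Fgf10-positive cells of the mouse submandibular gland. These 9 genes, out of 53465 counted, were picked by name, with the adult against pup difference in the same libraries already known. Their differences between the ages are therefore given as a description, without a test. All 9 were found by symbol and all passed the filter on low counts, Ciita through its pup counts alone. The name under which the genes were grouped, class II genes without leukocyte markers, held only in part: Ptprc and Tyrobp were low in the adults but had counts in both adult libraries, and other leukocyte genes had counts there too.

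Mice of the strain C57BL/6J with the genotype Fgf10CreERT2:Rosa26Tomato fl/fl were used at both ages, with CreERT2 driven by Fgf10, so that tamoxifen switched on a Tomato reporter in cells expressing Fgf10 and the reporter stayed on in those cells and their progeny. Adults received tamoxifen at postnatal days 57 and 58 and were taken at day 60; pups received it at days 4 and 5 and were taken at day 7, at 0.1 mg per g of body weight in both cases. Each age had 2 libraries, made from 1 ng of total RNA with the SMART-Seq HT kit, which copies full-length RNA and amplifies it by PCR. The labels name no separate animals or cultures behind the replicates, so any p-value reflects the spread between these libraries, which may be technical.

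MHC class II molecules are surface receptors that show peptides from ingested proteins to CD4-positive T cells. They are pairs of an alpha and a beta chain; the invariant chain encoded by Cd74 guides the pair through the cell, and the H2-DM heterodimer helps load the peptide. Dendritic cells, B cells and some macrophages carry class II at all times. Many epithelial, endothelial and stromal cells make it when exposed to interferon-gamma. Transcription depends on CIITA, a co-activator that does not bind DNA itself but joins RFX, CREB and NF-Y proteins assembled on paired elements, the X box and the Y box, shortly upstream of class II genes.

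Those paired elements are shown because CIITA acts on the class II genes through them. RefSeq promoters (GRCm38.p6, 250 bases before to 50 after the start site) were on hand for H2-Aa, H2-Eb1, H2-DMb1, H2-DMa, Ptprc and, outside the 9 genes, for H2-Eb2, H2-DMb2, H2-Oa and H2-Ob; H2-Ab1, Cd74, Ciita and Tyrobp had no entry. Capitals mark GNAAC, part of the X box, and TGATTGG, the core of the Y box; each line reads 5′ to 3′ on the gene's own strand and ends before the start site.
H2-Aa, chr17:34287861-34287912, minus strand: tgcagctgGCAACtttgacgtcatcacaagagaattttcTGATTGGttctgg
H2-Eb1, chr17:34305768-34305818, plus strand: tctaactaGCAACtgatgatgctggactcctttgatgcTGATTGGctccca
H2-DMb1, chr17:34153089-34153140, plus strand: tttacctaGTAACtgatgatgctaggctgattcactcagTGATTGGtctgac
H2-Oa, chr17:34092295-34092346, plus strand: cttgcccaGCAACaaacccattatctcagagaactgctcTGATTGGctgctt
The gap between both cores was 26, 25, 26 and 26 bases in the order printed, and the Y core ended at positions -44, -55, -57 and -39 from the start site. A pair with a gap of 20 to 30 bases, searched on both strands, was also present in H2-Eb2 (gap 25 bases) and H2-Ob (gap 23 bases), and in 0.323% of 32851 promoters in all. This pair was defined after the sequences were read, so its presence in these genes is a description. The full X box, a longer motif that also reads past GNAAC, was found in H2-DMb1 alone among these promoters and in 0.289% of all. The longer Y box CTGATTGG, which contains the Y core, was found in H2-Aa, H2-Eb1, H2-Eb2 and H2-Oa and in 4.1% of all. The windows listed for H2-DMa (2 start sites), H2-DMb2 and Ptprc (2 start sites) did not hold the pair.

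Gene counts ranged from 7289792 to 21490686 per library, the lowest in pup replicate 1. That library stood apart: reads outside annotated genes made up 76.7% of all reads tallied against 9.70% to 10.6% elsewhere, and 96.7% of 1092 olfactory receptor genes had a count against 1.56% to 7.78%. The rate over olfactory receptor genes, 14.03 counts per kb of exon, gave each gene an expected background count in that library. Single genes strayed widely from it: observed over expected ran from 0.0457 to 2.82 between the 5th and 95th percentile of the olfactory receptor genes. Fgf10 itself stood at 195 and 40.3 CPM (counts per 1000000 counts of the library, scaled by TMM factors) in adult and at 27.3 and 24.1 CPM in pup libraries. Over 16320 genes tested, edgeR called 0% higher and 0% lower in adult at an adjusted p of 0.05. DESeq2 called 3.73% higher and 5.3% lower.

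The classical chains H2-Aa and H2-Ab1, which pair as I-A, were the members with the widest gap between the ages after Ciita. H2-Aa (chromosome 17, 34282744 to 34287823, GRCm38), the alpha chain, had 357 and 581 counts in adult replicates 1 and 2 and 22 and 31 counts in pup replicates 1 and 2, or 27.4, 41.8, 2.38 and 1.63 CPM. H2-Ab1 (chromosome 17, 34257689 to 34269419), the beta chain, had 509, 1151, 28 and 36 counts in the same order, or 39.0, 82.9, 3.03 and 1.89 CPM. For both genes each adult library lay far above each pup library, and adult replicate 2 was the highest. Means were 34.6 ± 10.2 CPM (SD, n = 2) in adult and 2.005 ± 0.532 CPM in pup for H2-Aa, a log2 fold change of 4.11 ± 0.81 (SE). For H2-Ab1 they were 60.9 ± 31.0 CPM and 2.46 ± 0.805 CPM, a log2 fold change of 4.64 ± 0.71. Over all genes tested the median log2 fold change was -0.24. Background was expected to give 53.3 counts for H2-Aa and 36.02 for H2-Ab1 in pup replicate 1, more than were observed. Leaving that library out gave the pup value from pup replicate 2 alone, and the log2 fold changes were then 4.397 and 5.00. In bulk RNA such as this, fewer cells of a type and less RNA per cell cannot be told apart.

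H2-Eb1 (chromosome 17, 34305867 to 34316674) encodes the beta chain of I-E, the other classical class II pair. It had 129, 458, 56 and 64 counts, or 9.89, 33.0, 6.06 and 3.36 CPM. The adults again lay above the pups, but adult replicate 1 exceeded pup replicate 1 by less than the adults differed from each other. Its log2 fold change was 2.19 ± 1.05, and 1.07 without adult replicate 2. The alpha chain that would pair with it, listed as H2-Ea-ps because mice of this strain carry an inactive copy, had 0 counts in the adults and in pup replicate 2. In pup replicate 1 it had 17 counts, with 14.5 expected from background.

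Cd74 (chromosome 18, 60803848 to 60812652), the invariant chain, had the highest level per kb of exon among the 9 genes in each of the 4 libraries. It had 1218 and 2638 counts for adult and 77 and 492 for pup libraries, or 93.3, 190, 8.33 and 25.8 CPM. The pups differed here by more than for H2-Aa and H2-Ab1, with pup replicate 2 the higher, yet both stayed below the adults. The log2 fold change was 3.05 ± 0.74. Per kb of exon, Cd74 stood at 55.6 and 113 CPM per kb in the adults, H2-Ab1 at 15.2 and 32.3, H2-Aa at 7.20 and 11.01 and H2-Eb1 at 5.09 and 17.0. The order Cd74, then H2-Ab1, was shared by both adults, while H2-Aa and H2-Eb1 changed places between them.

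The chains of the peptide loader H2-DM did not share the pattern of the classical chains. H2-DMa (chromosome 17, 34119541 to 34139101), its alpha chain, had 24 and 90 counts for adult and 39 and 11 for pup libraries, or 1.84, 6.48, 4.22 and 0.58 CPM. The ages overlapped, and its log2 fold change of 0.80 ± 1.85 became -0.37 when adult replicate 2 was left out, -0.02 when pup replicate 2 was, and 2.82 when pup replicate 1 was. Of its exon length 10.4% is shared with another gene, and background was expected to give 48.4 counts in pup replicate 1. H2-DMb1 (chromosome 17, 34153072 to 34160230), a beta chain, had 227, 159, 29 and 147 counts, or 17.4, 11.4, 3.14 and 7.72 CPM. The adults lay above the pups by a small margin over pup replicate 2, with a log2 fold change of 1.40 ± 1.12. Its near-identical neighbour H2-DMb2 had 0 counts outside pup replicate 1, so reads of the pair may be split or dropped in these counts.

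**Figure D1:**
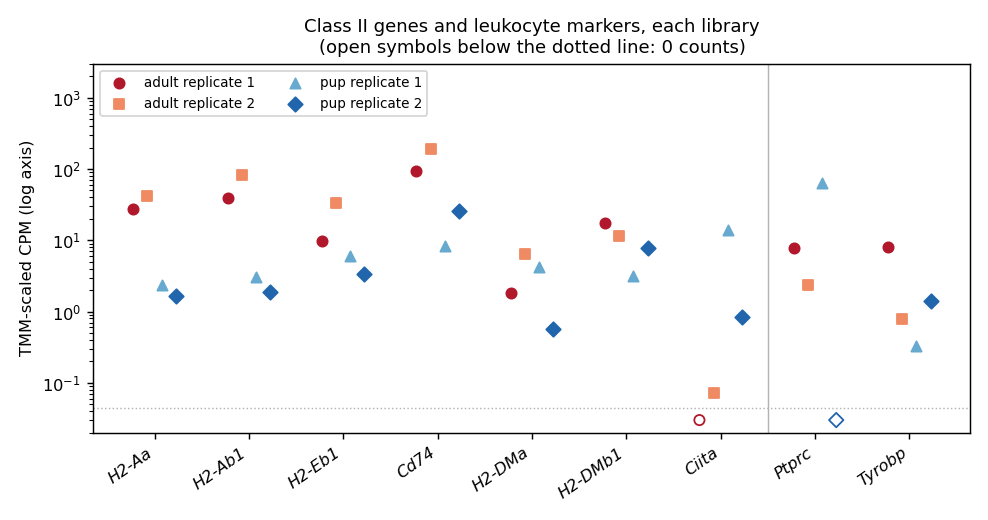
TMM-scaled CPM on a log axis for the 7 class II genes and, right of the line, Ptprc and Tyrobp; each symbol is 1 library, and open symbols mark 0 counts. H2-Aa, H2-Ab1, H2-Eb1, Cd74 and H2-DMb1 were higher in both adults than in both pups, Ciita was lower, and H2-DMa, Ptprc and Tyrobp overlapped.

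Of the 7 class II genes, 5 thus had both adults above both pups and 1, Ciita, had both adults below. Over all genes tested 21.8% had both adults above and 27.1% both below; since the age difference took part in the choice of genes, nothing is read from that. The median log2 fold change of the 7 was 2.19. The summed level of the 7 was 189 and 366 CPM for adult and 41.1 and 41.9 CPM for pup libraries.

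The makeup of the class II sum differed between the libraries. Cd74 made up 49.4% (95% exact binomial interval 47.4 to 51.4) and 51.9% (50.6 to 53.3) of the class II counts in the adults, and 20.3% (16.3 to 24.7) and 61.7% (58.3 to 65.1) in pup replicates 1 and 2. In pup replicate 1 the largest share was that of Ciita, 33.9%, with 346 of the 380 counts expected from background. Intervals here and below cover counting error only, as reads amplified by PCR are not separate molecules. The count ratio of Cd74 to H2-Ab1 was 2.39 (2.16 to 2.66) and 2.29 (2.14 to 2.46) in adult libraries. It was 2.75 (1.76 to 4.403) in pup replicate 1 and 13.7 (9.74 to 19.7) in pup replicate 2. Against H2-Eb1 the ratio was 9.44 (7.87 to 11.4) and 5.76 (5.21 to 6.37) for adult and 1.38 (0.962 to 1.98) and 7.69 (5.92 to 10.1) for pup libraries. Pup replicate 2 thus had more Cd74 per count of H2-Ab1 than the adults had, but lay between them for H2-Eb1. H2-DMb1 made up 9.21% and 3.13% of the sum for adult and 7.63% and 18.4% for pup libraries. The ratio of H2-DMb1 to H2-DMa was 9.46 (6.20 to 15.1) and 1.77 (1.36 to 2.31) for adult and 0.744 (0.443 to 1.23) and 13.4 (7.25 to 27.4) for pup libraries, so the H2-DM chains did not keep a fixed proportion within either age.

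**Figure D2:**
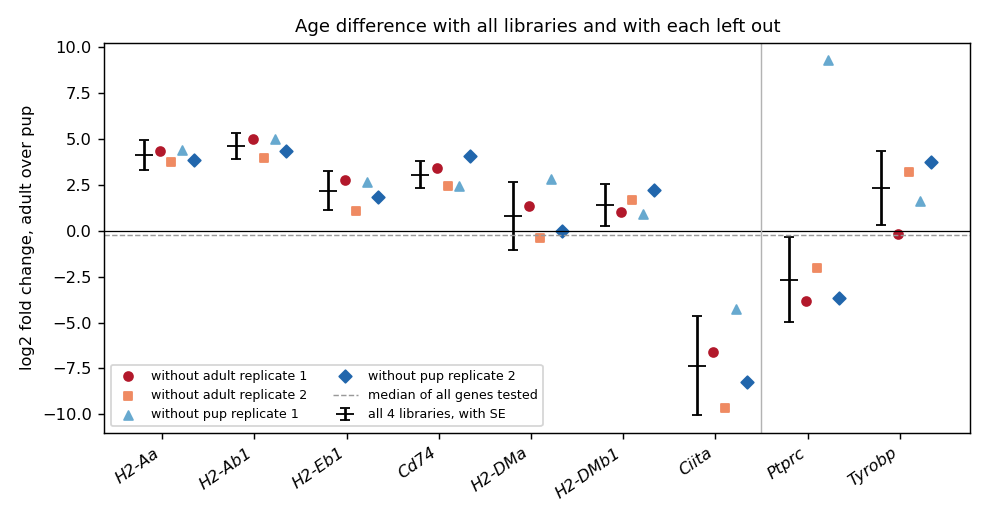
Log2 fold change of adult over pup for each of the 9 genes: black bars show the fit to all 4 libraries with its SE, symbols the fits without 1 library, and the dashed line the median of all genes tested. H2-Aa, H2-Ab1, H2-Eb1, Cd74 and H2-DMb1 stayed above 0 and Ciita below 0 in every such fit, whereas H2-DMa, Ptprc and Tyrobp crossed 0.

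Ciita (chromosome 16, 10480059 to 10528418), the co-activator of class II transcription, was nearly absent from the adult libraries in which class II chains were highest. It had 0 counts in adult replicate 1 and 1 count in adult replicate 2, against 129 and 16 counts in the pups. These counts correspond to 0, 0.0720, 13.96 and 0.841 CPM. Background was expected to give 134 counts in pup replicate 1, so that library held no more Ciita counts than its background. The ratio of pup replicate 2 to the adults was 22.6 with a counting interval of 3.52 to 950. A floor of 3 counts corresponds to 0.230 and 0.216 CPM in the adults, and levels below it could not be detected at this depth. Its log2 fold change of -7.34 ± 2.69 was -4.26 without pup replicate 1; with so few adult counts, these fitted values depend on the small count that edgeR adds and give no bound.

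Ptprc (chromosome 1, 138062861 to 138175708) encodes CD45, a phosphatase on nearly all leukocytes. It had 101 and 33 counts for adult and 594 and 0 for pup libraries, or 7.74, 2.38, 64.3 and 0 CPM. The pups thus held both the highest and the lowest value. In pup replicate 1 the gene's 18.3 kb of exon gave an expected background of 257 counts, and the observed count was 2.31 times that, within the spread of the olfactory receptor genes. Whether genes with that much exon stray as far was not tested, so the source of the excess stays unknown. The log2 fold change was -2.66 ± 2.31 with all libraries and 9.28 without pup replicate 1, the latter against a lone library with 0 counts and so no measure of size. Tyrobp (chromosome 7, 30413760 to 30417585) encodes DAP12, a signalling adaptor of myeloid and natural killer cells. It had 105, 11, 3 and 27 counts, or 8.05, 0.792, 0.325 and 1.42 CPM. Adult replicate 1 was the high library; adult replicate 2 lay below pup replicate 2, and the log2 fold change of 2.32 ± 2.03 was -0.18 without adult replicate 1. For neither marker did the ages separate.

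Further leukocyte genes were read from 6 marker lists with 98 members, of which 43 passed the filter. By edgeR 0 were called higher and 0 lower in adult (0% of all genes each way), 1 higher and 4 lower at an unadjusted p under 0.05 (5.99% and 8.49% of all genes), and 0 by limma-voom. DESeq2 called 1 higher (Cd14) and 3 lower (Mrc1, Wdfy4 and Fscn1), beside 3.73% and 5.3% of all genes. The median log2 fold change of the 43 was 0.06 against -0.24 for all genes, and it was 2.20 without pup replicate 1. In the adults 68 and 50 of the 98 markers had 0 counts, in pup replicate 2 it was 62, and in pup replicate 1 it was 2. Markers with a count thus numbered 30, 48, 96 and 36 in adult replicates 1 and 2 and pup replicates 1 and 2. Of all 53465 genes, 16805, 19764, 44734 and 19591 had a count in the same order.

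Macrophage genes went different ways: of 14 tested, 5 had both adults above both pups and 2 had both below. Over all genes tested these shares were 21.8% and 27.1%. C1qb, a chain of complement C1q made by tissue macrophages, had 195 and 176 counts for adult and 28 and 9 for pup libraries. C1qa had 72 and 40 counts against 9 and 0, and C1qc 187 and 41 against 8 and 15. For C1qb, C1qa and C1qc the background expected in pup replicate 1 came to 15.3, 14.6 and 27.1 counts. All 3 genes were higher in both adults than in both pups, as H2-Aa and H2-Ab1 were, with log2 fold changes of 2.99 ± 1.49, 3.12 ± 2.45 and 3.37 ± 1.73 and edgeR adjusted p of 0.442, 0.653 and 0.456. The 2 genes that lay lower in both adults were Cd68, a lysosomal protein of macrophages, with 22, 26, 29 and 114 counts, and Mrc1, the mannose receptor, with 0, 0, 82 and 56 counts, where background alone was expected to give 89.4 in pup replicate 1. Csf1r, the receptor that macrophages need to live, had 79, 9, 37 and 5 counts, while Adgre1, a surface receptor of macrophages, had 0 counts in 3 libraries and 43 in pup replicate 1 with 45.4 expected. The macrophage and monocyte list summed to between 139 and 163 CPM in the adults and between 151 and 173 CPM in the pups. C1qb, C1qc, Cd68 and Mrc1 were chosen here with their values known.

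Pan-leukocyte genes other than the 2 members were present at low counts. Laptm5, a lysosomal membrane protein of blood cells, had 115, 86, 46 and 19 counts, Coro1a, an actin regulator, 69, 45, 49 and 11, and Cd52, a surface glycoprotein of lymphocytes and monocytes, 50, 58, 67 and 6. Each was higher in CPM in both adults than in pup replicate 2, which was not so for others of the list: Cd53, a surface tetraspanin, had 18, 0, 63 and 74 counts and Cd37, a related protein, 0, 0, 38 and 30. Of the 19 list members tested, 2 had both adults above both pups and 3 had both below, beside 21.8% and 27.1% of all genes. The most abundant list members, Lcp1 and Lsp1, which bind actin, had 261, 1220, 255 and 1442 counts and 38, 359, 199 and 805 counts. Both were lowest in CPM in adult replicate 1. That library also had the least fibroblast RNA, with summed fibroblast markers of 1258 CPM against 22449 CPM in adult replicate 2 and 26121 and 59784 CPM in the pup libraries; its part in the difference was not tested.

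Of the 12 dendritic and Langerhans cell genes, 11 and 6 had 0 counts for adult and 0 and 7 for pup libraries, and the list summed to 1.30, 31.2, 196 and 212 CPM. Most of that sum outside pup replicate 1 was Fscn1, an actin-bundling protein that mature dendritic cells and other cells make, with 17, 285, 690 and 3420 counts. Flt3, a growth factor receptor of dendritic cells, had 0 counts in the adults and in pup replicate 2. Zbtb46, a transcription factor of classical dendritic cells that endothelium also makes, had 0, 123, 339 and 497 counts. Cd207, the marker of Langerhans cells, had 1 count in pup replicate 1 and 0 elsewhere. Of 14 B and plasma cell genes, 14 and 12 had 0 counts for adult and 0 and 13 for pup libraries. In adult replicate 2, Cd79a, part of the B cell receptor, had 10 counts. Ms4a1, Cr2 and Bank1, the B cell genes of highest mean level, had 245, 181 and 132 counts in pup replicate 1 and 0 in the other libraries. Background was expected to give 86.8, 114 and 105 counts for them in pup replicate 1. Cd3e, a chain of the T cell receptor complex, and Cpa3, a mast cell protease, had 0 counts in the 3 libraries other than pup replicate 1. Other T cell genes had counts there. Lck, a kinase of T cell receptor signalling, had 10, 28, 121 and 104 counts over the 4 libraries. Il7r, the receptor for a lymphocyte growth factor, had 0, 35, 160 and 0. For Lck and Il7r the background expected in pup replicate 1 was 41.1 and 65.4 counts.

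**Figure D3:**
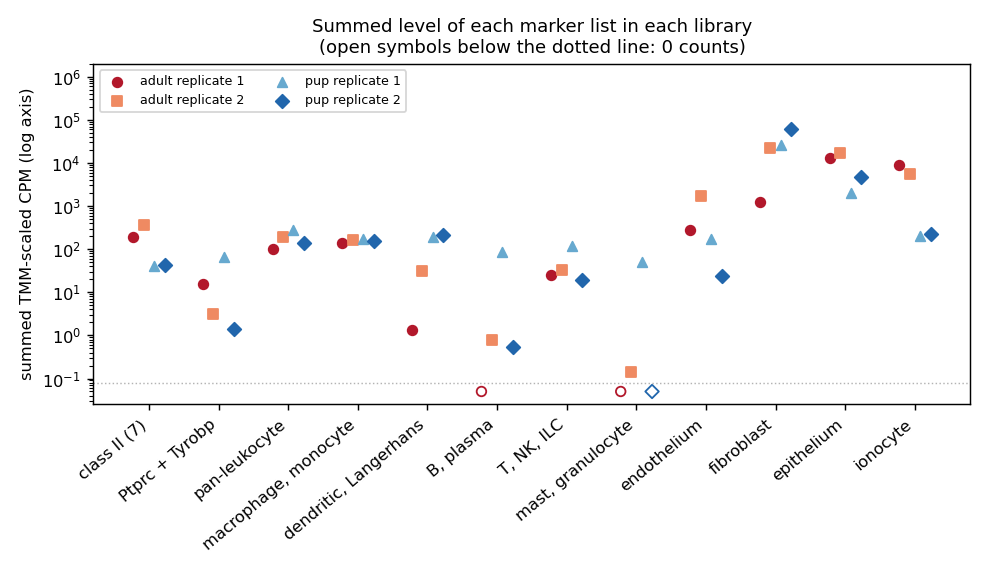
Summed TMM-scaled CPM of each marker list (log axis) in each library, with the 7 class II genes at the left; open symbols mark 0 counts. B, mast and dendritic cell lists were at or near 0 in adult replicate 1, and the endothelial and fibroblast lists differed widely between the adults.

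Set against the leukocyte markers within each library, class II counts gave ratios that differed between the adults. The 7 class II genes had 2464 counts to 206 for Ptprc and Tyrobp in adult replicate 1, a ratio of 11.96 (counting interval 10.4 to 13.9). In adult replicate 2 they had 5078 counts to 44, a ratio of 115 (85.8 to 159). The ratio was 0.637 (0.558 to 0.725) in pup replicate 1 and 29.5 (20.1 to 45.1) in pup replicate 2. Ptprc alone had 0 counts in pup replicate 2, so the exact interval gave only a lower limit of 216 there. Against C1qa, C1qb and C1qc together the ratio was 5.43 (4.91 to 6.01) and 19.8 (17.4 to 22.5) in the adults and 33.2 (22.2 to 52.1) in pup replicate 2. Against the whole pan-leukocyte list it was 1.88 (1.75 to 2.01) and 1.90 (1.82 to 1.995) in the adults and 0.301 (0.278 to 0.326) in pup replicate 2. Lcp1 took 45.7% of that list's counts in adult replicate 2 and 54.4% in pup replicate 2. The order of the libraries thus depended on which leukocyte genes were taken. What these ratios are in leukocytes themselves was not measured here, and whether leukocyte RNA is enough to give the class II counts was not tested.

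The adults differed from each other, a contrast that the choice of genes did not use, and there class II and the 2 markers went opposite ways. The class II sum was 1.94 times as high in adult replicate 2 as in adult replicate 1 (counting interval 1.84 to 2.03). By gene the ratio was 1.53 for H2-Aa, 2.12 for H2-Ab1, 3.34 for H2-Eb1, 2.03 for Cd74 and 3.52 for H2-DMa, whereas H2-DMb1 was 0.658 times as high. Ptprc was 3.26 times (2.18 to 4.98) and Tyrobp 10.2 times (5.45 to 21.0) as high in adult replicate 1 as in adult replicate 2. Csf1r, C1qc and Cx3cr1, a receptor of resident macrophages, were also higher in adult replicate 1, by 9.34, 4.85 and 7.16 times. The summed leukocyte lists, however, were higher in adult replicate 2, as class II was: by 1.91 times (1.78 to 2.04) for the pan-leukocyte list, 1.17 times (1.10 to 1.25) for the macrophage list, 23.9 times (14.8 to 41.5) for the dendritic list and 1.58 times (1.51 to 1.65) for all 6 lists. A few genes carried most of the larger differences. The pan-leukocyte list had 1314 counts in adult replicate 1 and 2668 in adult replicate 2, with Lcp1 at 261 and 1220 and Lsp1 at 38 and 359. For the dendritic list, 17 and 433 counts in the same order, Fscn1 had 17 and 285 and Zbtb46 0 and 123. Whether the counts of these genes came from leukocytes was not tested. Of 32 pan-leukocyte and macrophage genes with at least 10 counts over both adults, 14 were higher in adult replicate 2 beyond counting error, 12 were lower and 6 had intervals that included no difference. Of these genes 7 had 0 counts in adult replicate 1, among them Itgb2, an integrin chain, with 30 counts in adult replicate 2, and 2 had 0 in adult replicate 2, Cd53 and Cd48, with 18 and 52 in adult replicate 1. Over 15824 genes with that many counts the median log2 ratio was 0.08, and 52.4% of the 16320 genes tested were higher in adult replicate 2. How many of all genes differed beyond counting error was not counted, so nothing is read from the 14 and 12. The comparison of the adults is between 2 libraries and says nothing of the ages.

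**Figure D4:**
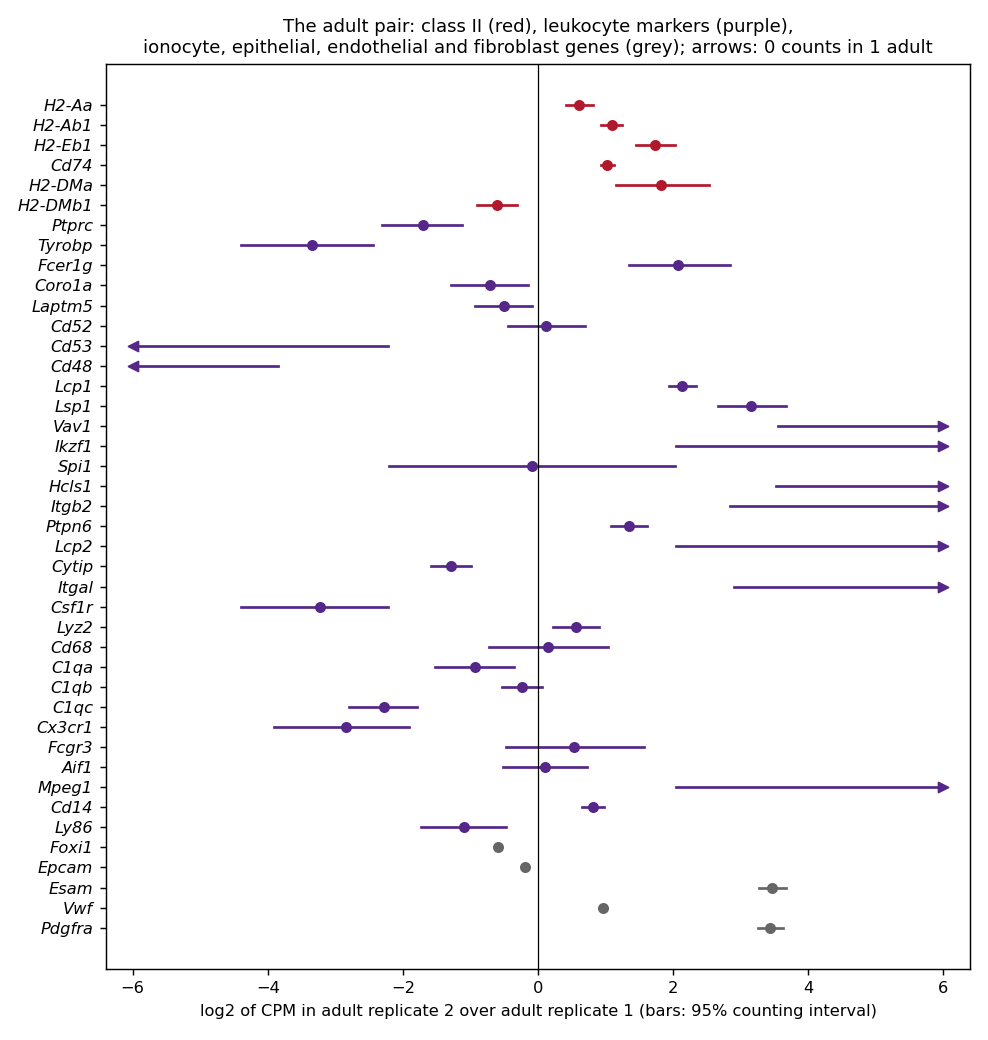
Log2 ratio of CPM in adult replicate 2 over adult replicate 1 with 95% counting intervals, for 6 class II genes (red), 31 of the leukocyte genes (purple) and genes of ionocytes, epithelium, endothelium and fibroblasts (grey); arrows mark open intervals of genes with 0 counts in 1 adult. Of the class II genes 5 lie right of 0, Ptprc and Tyrobp lie left of it, and the other leukocyte genes fall on both sides.

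RNA of other cell types also differed between the adults. The endothelial list summed to 277 CPM in adult replicate 1, of which Vwf took 93.8%, and to 1721 CPM in adult replicate 2. Pecam1, an adhesion molecule of endothelium, had 1 and 5480 counts, Cdh5, its cadherin, 0 and 605, and Kdr, a receptor for VEGF, 0 and 1375. Pdgfra, a receptor of fibroblasts, was 10.8 times as high in adult replicate 2 (9.52 to 12.4). Epcam, an adhesion molecule of epithelium, and Foxi1, the ionocyte transcription factor, were lower in adult replicate 2, by ratios of 0.873 and 0.660. The epithelial list as a sum was nevertheless higher there, at 16589 CPM against 12827 CPM in adult replicate 1, or 1.29 times. Its genes went both ways, as with Krt8 at 2.83 times and Cldn7 at 0.578 times. The ionocyte list summed lower there, at 5531 against 8966 CPM. Endothelial, fibroblast and, as a sum, epithelial RNA thus moved with class II between the adults. Their part in it was not tested.

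**Figure D5:**
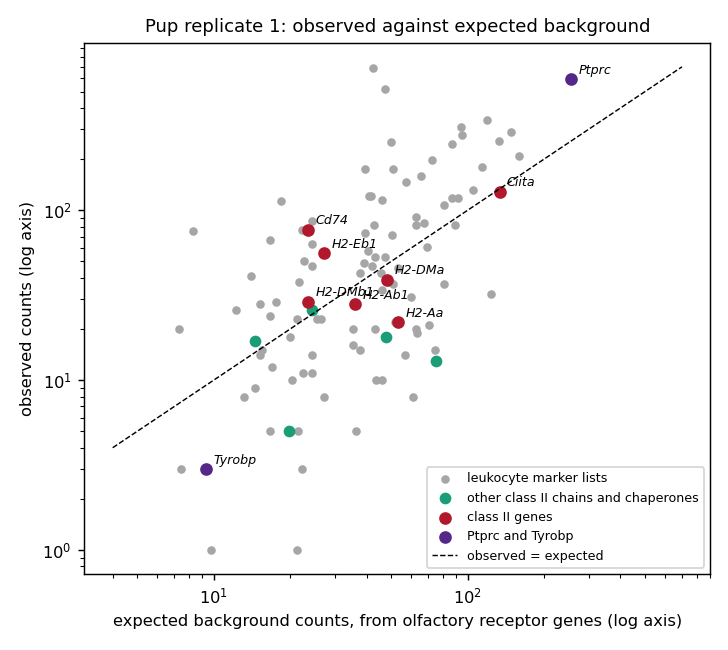
Observed counts in pup replicate 1 against the background expected from olfactory receptor genes, both on log axes, for the class II genes (red), Ptprc and Tyrobp (purple), other class II chains and chaperones (green) and leukocyte markers (grey). H2-Aa, H2-Ab1, H2-DMa, Ciita and Tyrobp lie on or under the dashed line of equality, and Cd74 is farthest above it among the class II genes, at 3.27 times the expected count.

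Other genes of the class II pathway were taken from 4 lists with 42 matched genes, of which 32 were tested. By edgeR 0 were called higher and 0 lower in adult, against 0% of all genes each way; at an unadjusted p under 0.05 it was 1 higher and 2 lower, beside 5.99% and 8.49% of all genes, and limma-voom called 0. DESeq2 called 1 higher and 1 lower (Cd40), next to its 3.73% and 5.3% of all genes. The median log2 fold change of the 32 was -0.08 and that of all genes -0.24, with 15 above 0 and 17 below. Both adults were above both pups for 9 of the 32 and below for 6, where all genes gave 21.8% and 27.1%. The pathway genes thus lay on both sides, and the sign of their median changed in 6 of 12 alternatives.

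The remaining chains and chaperones, H2-Eb2, H2-DMb2, H2-Oa and H2-Ob, had 0 counts in both adults and pup replicate 2. H2-Oa and H2-Ob form H2-O, an inhibitor of H2-DM found in B cells. Their counts in pup replicate 1, between 5 and 26, compare with 19.7 to 75.5 expected from background. No fold is given for them. Thus of the class II chains in the lists, those of I-A, I-E beta and H2-DM had counts in the adults.

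Among regulators, Irf1, an interferon-induced factor that acts on the Ciita gene, stood at 103, 249, 201 and 284 CPM, with adult replicate 1 the lowest. Jak1, a kinase of interferon receptors, and Ifngr1, a chain of the interferon-gamma receptor, had log2 fold changes of -0.10 ± 0.57 and -0.17 ± 0.52. The RFX subunits Rfx5, Rfxap and Rfxank, which bind the X box, were detected in every library. Rfx5 stood at 8.89 and 6.34 CPM for adult and 8.87 and 7.09 CPM for pup libraries, Rfxap at 36.9 and 21.2 against 26.1 and 49.1, and Rfxank at 23.1 and 13.2 against 10.4 and 5.36. For Rfx5 82 counts in pup replicate 1 compare with 77.1 expected from background.

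Among enzymes of antigen processing, Ctss, the cathepsin that trims the invariant chain in antigen-presenting cells, had 193 and 160 counts for adult and 18 and 17 for pup libraries. The adults were far above the pups, with a log2 fold change of 3.21 ± 1.39. Its edgeR adjusted p was 0.367, where no gene of the 16320 tested passed and the smallest was 0.141. In pup replicate 1 background was expected to give 19.0 counts. The abundant lysosomal genes of the list did not follow: Ctsb and Ctsl, cathepsins of most cells, and Cd63, a lysosomal membrane protein, had log2 fold changes of 0.49 ± 0.89, -1.18 ± 0.85 and -0.46 ± 0.83.

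Of the costimulatory genes, which antigen-presenting cells need beside class II to activate T cells, Cd80, Cd86 and Cd40 had few or no counts in the adults. Cd80 had 0 counts outside pup replicate 1, and Cd86 had 18 and 18 counts in the adults, 136 in pup replicate 1 with 51.3 expected, and 0 in pup replicate 2. Cd40 had 0 counts in both adults and 74 and 170 in the pups, 47.8 of the former expected from background. The most abundant members were Tnfsf9, which encodes a ligand for a receptor of activated T cells, Icosl, the ligand of ICOS, and Cd274, which encodes the inhibitory ligand PD-L1. Tnfsf9 stood at 2.15 and 11.5 CPM for adult and 35.2 and 54.5 CPM for pup libraries, and Icosl at 11.96 and 18.9 against 9.20 and 23.5 CPM. Cd274 stood at 10.5 and 21.4 CPM against 4.55 and 1.47 CPM, with both adults above both pups. None of the 3 passed by edgeR, as no gene did.

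The genes nearest to a mean class II profile were found from log2 CPM (with 1 CPM added) in the 4 libraries, centred on each gene's mean. The profile used was the mean over H2-Aa, H2-Ab1, H2-Eb1, Cd74 and H2-DMa, a set chosen with earlier results known; it holds H2-DMa, whose ages overlapped, and leaves out H2-DMb1, whose ages did not. Of 10379 other genes with a mean of at least 10 CPM, the nearest were Rhpn2, Clec2d, Alas1, Esrp2 and Syne4, with root mean square differences of 0.19, 0.23, 0.23, 0.24 and 0.24 on the log2 scale. Rhpn2 stood at 58.5, 129, 19.0 and 15.7 CPM and Esrp2, an epithelial splicing factor, at 53.3, 78.5, 13.3 and 9.35 CPM. The distance was 2.72 for Ptprc, 1.496 for Tyrobp, 0.81 for C1qa, 0.65 for Epcam and 2.92 for Pecam1. Members of the mean were themselves at 0.47 (H2-Eb1), 0.49 (H2-Aa), 0.70 (Cd74), 0.73 (H2-Ab1) and 1.10 (H2-DMa), and H2-DMb1 was at 1.02. With 4 libraries many genes lie close to any such profile: 70 genes were nearer than H2-Eb1 and 2137 were nearer than H2-DMa.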

How the data were processed

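Each library's file holds raw read counts per Ensembl gene, deposited by the authors. The submitters' processing notes name cutadapt 1.18, STAR 2.5.2a, HTSeq 0.11.0, R 3.5.1, DESeq2 1.20.0 and the build GRCm38. Their options, the annotation release and any use of strand were not given in the sources used here. HTSeq's closing tallies (31.5% to 84.4% of all reads tallied) were left out of library sizes. Without strand, reads of overlapping genes cannot be told apart. A further 2 tables with 8 value columns were not used, as their column names match no sample. Of 53465 gene IDs, 53360 matched GENCODE vM21, which gave symbols, coordinates and exon length.

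Counts were analysed in R 4.3.3 with edgeR 4.0.16 (TMM factors, filterByExpr with a minimum count of 10 and total of 15, quasi-likelihood F test, age as the only term, Benjamini-Hochberg adjusted p under 0.05 over all genes), checked on simulated data. CPM use TMM-scaled sizes of the filtered genes. Positive log2 fold changes mean higher in adult. Ratios of counts carry exact binomial intervals at 95%. Expected background was exon length times the rate over olfactory receptor genes, multiplied by 0.5 for genes of the sex chromosomes. Alternatives were DESeq2 size factors, library totals, 2 other filters (1 count in total, or 10 in all libraries of 1 age), limma-voom (limma 3.58.1), DESeq2 1.42.0, a replicate block, background subtracted from pup replicate 1, and each library left out.

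The members, lists and tests were chosen with earlier results of these data known. Named were all 9 members, per list the called genes or the 3 of highest mean CPM where those bear on the results, and a fixed set of markers and regulators. The genes DESeq2 called, C1qb, C1qc, Cx3cr1, Cd207, Kdr, Cd53, Cd48, Cd37, Itgb2, Lck, Il7r, Cd68 and the genes of the adult pair were named after their values were seen. A few genes that are counted in the lists are not reported here by name.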

Additional observations from a re-analysis of the deposited data

How the results depend on the processing

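With 2 libraries per age, of which pup replicate 1 carried a broad background, counts of called genes moved with the setting. Over all genes, edgeR's 0 higher and 0 lower in adult became 284 and 231 with no filter beyond 1 count, 13 and 2 with 10 counts in all libraries of 1 age, 597 and 848 by DESeq2, and 15 and 2 with the background subtracted. Leaving out each library gave 0 to 247 higher and 0 to 733 lower; calls arose without adult replicate 1 (229 and 161) or adult replicate 2 (247 and 733). For class II pathway genes, 1 was called higher with no filter, 1 higher and 1 lower by DESeq2, and 0 to 1 higher and 0 to 1 lower with a library left out. For leukocyte markers it was 1 higher and 1 lower with no filter, 1 and 3 by DESeq2, and 0 to 1 higher and 0 to 3 lower with a library left out. The median log2 fold change of the 7 class II genes was 3.05 with the background subtracted and 1.67 to 2.75 with a library left out, against 2.19. Over the 12 alternatives H2-Aa ranged from 3.67 to 5.28, H2-Ab1 from 3.99 to 5.85, H2-Eb1 from 1.07 to 2.75, Cd74 from 2.44 to 4.09 and H2-DMb1 from 0.90 to 2.20, and Ciita from -9.67 to -3.28. Ptprc changed sign in 3 (3.14 by limma-voom, 0.79 with the replicate block, 9.28 without pup replicate 1), H2-DMa in 2 and Tyrobp in 1. The median of the pathway genes ranged from -0.39 to 0.27 and that of the leukocyte markers from -3.96 to 2.20, with a change of sign in 6 and 8 alternatives. The cause of these changes was not tested.

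The ratio of class II to leukocyte counts (11.96, 115, 0.637 and 29.5 in adult replicates 1 and 2 and pup replicates 1 and 2) depended on the denominator and scale. Per kb of exon it was 7.52 for adult replicate 1, and for pup replicates 1 and 2 it was 3.61 and 10.9. Against Ptprc alone it was 24.4 in adult replicate 1; against Tyrobp alone it was 23.5 and 462 in the adults and 127 in pup replicate 1. Against the pan-leukocyte list it was 1.88, 1.90, 0.150 and 0.301. With the background subtracted it was 0.258 in pup replicate 1.

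Replicate numbers are shared between the ages, but nothing in the labels ties equal numbers together, and the deviations of adult replicate 1 and pup replicate 1 from their age means correlated at -0.098 over genes. The fit with the replicate block called 0 genes higher and 0 lower in adult, and changed no call; H2-Aa was at 4.10 and Ptprc at 0.79.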

Other observations

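Endothelial genes were split in adult replicate 1. Vwf, which encodes von Willebrand factor, had 3393 counts (260 CPM) there, and Esam, an adhesion molecule, 224 counts, while Cdh5, Kdr, Tie1, Tek, Egfl7, Cldn5 and Emcn had 0 and Pecam1 had 1. In adult replicate 2 all 10 listed genes had counts. Resident macrophage genes were split too: C1qa, C1qb and C1qc had counts in both adults, while Adgre1, Mrc1 and Fcgr1 had 0 in both.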
